A study of Mus musculus with 3 samples.

Results

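The genes described here are 41 genes of DNA replication and of the G1/S transition, taken as a fixed list of symbols from the 32285 genes of the count tables, and all 41 were found. They were read in single-cell RNA sequencing libraries of CD3-sorted cells from tumours of MC38, a colon carcinoma line of mice. There was 1 library labelled homo, 1 labelled mix and 1 labelled PBS, taken as the reference. Tumours of every group were collected at day 15, with 5 days of treatment. What homo and mix received, the number of animals behind a library, and the strain, age and sex of the mice are not in the labels, so each group keeps its label as its name. With 1 library a group there is no replicate, and no difference between groups could be tested: every interval below is a 95% interval of counting error alone.

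Before a cell divides it copies its genome once. In G1, the origin recognition complex, Cdc6 and Cdt1 load the Mcm2-7 helicase onto origins; cyclin E with its kinase and the factors Cdc45 and GINS then switch the helicase on, and polymerases, the Pcna clamp and its loaders copy the strands. Most of these genes are transcribed by E2F factors once RB is phosphorylated. T cells in blood and lymph nodes are mostly out of cycle, whereas antigen-driven CD8 T cells in tumours hold a dividing fraction.

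The libraries held 8528 (homo), 8461 (mix) and 10351 (PBS) barcodes with a median of 6582, 4955 and 4748 UMIs, a UMI being one counted RNA molecule. In homo, 4.07% of barcodes exceeded 10% mitochondrial UMIs, against 0.307% in mix and 0.251% in PBS, so homo stood apart in depth and in this share before any gene was compared. After filters and removal of likely doublets, cells were gated on raw UMIs. CD8 cells had a Cd8a or Cd8b1 UMI and none of Cd4 or Foxp3, CD4 cells had a Cd4 UMI and none of Cd8a, Cd8b1 or Foxp3, and Foxp3 cells had a Foxp3 UMI and none of Cd8a or Cd8b1, and each also had a Cd3d, Cd3e or Cd3g UMI. The CD8 gate held 6517 (homo), 5587 (mix) and 7117 (PBS) cells, the Foxp3 gate 124, 807 and 842, and the CD4 gate 70, 309 and 317 in the same order. Values in the CD4 and Foxp3 gates of homo therefore rest on few cells. Pairs of libraries shared 100 to 131 barcode sequences.

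In CD8 cells the 41 genes together made up 1619 CPM in homo (UMIs per 1000000 UMIs of the gated cells, interval 1608 to 1630), 1774 CPM in mix (1760 to 1788) and 1834 CPM in PBS (1821 to 1847). The log2 ratio of homo over PBS was -0.18 (-0.19 to -0.17), that of homo over mix -0.13 (-0.15 to -0.12) and that of mix over PBS -0.05 (-0.06 to -0.03). The summed level was thus lowest in homo, and mix and PBS lay close together. With equal weight of cells homo over mix was -0.23 and mix over PBS -0.028, and scaling without ribosomal, mitochondrial and receptor genes gave -0.077 for homo over mix. The genes did not move as a block: the helicase loading genes were lower in homo, while Tk1, Pclaf and Tyms were higher.

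**Figure D1:**
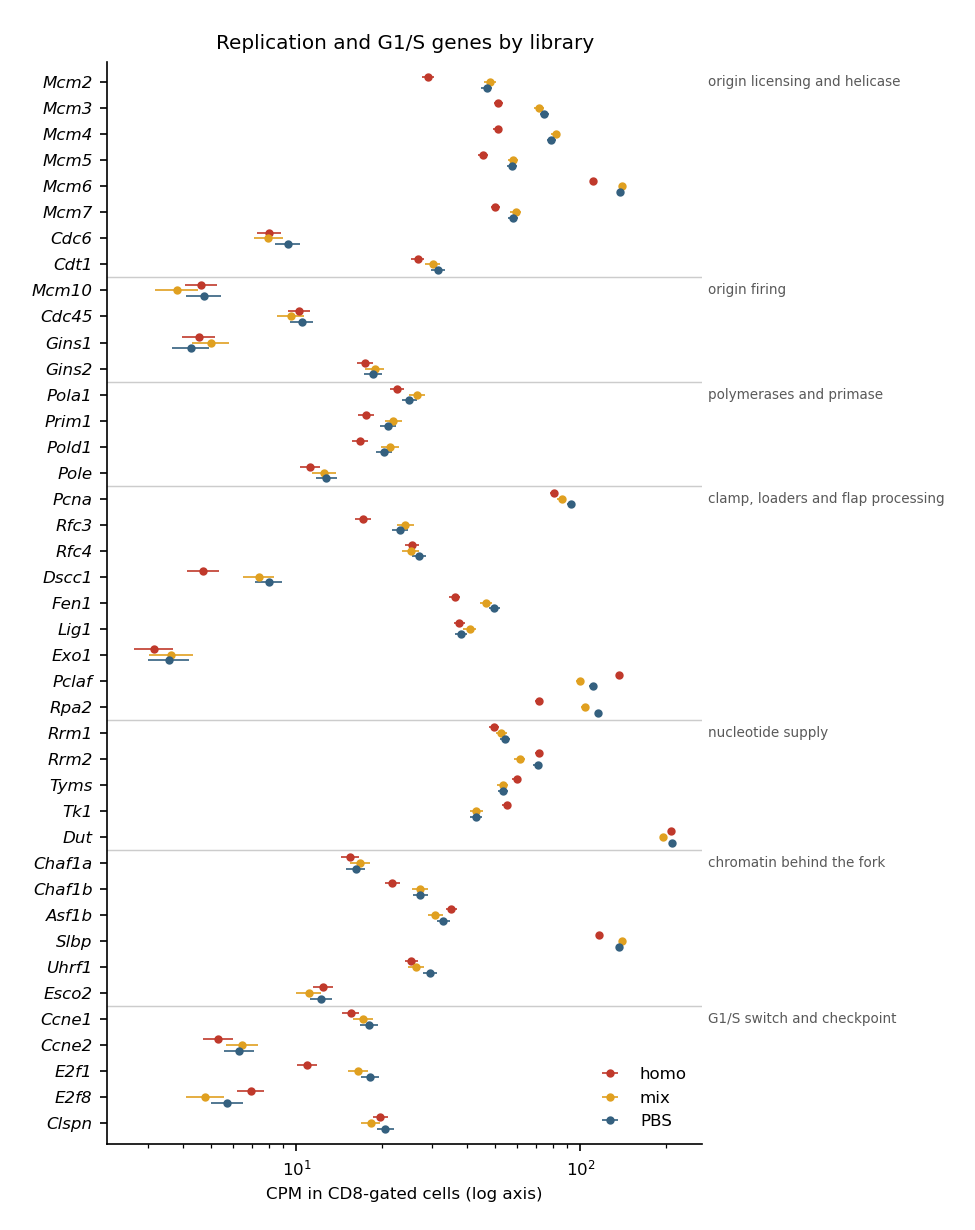
Level of each of the 41 genes in CD8-gated cells of homo, mix and PBS, in CPM on a log axis, grouped by role. Points are 1 library each and bars are 95% counting intervals. The homo points of Mcm2 to Mcm7, Rpa2, Fen1 and E2f1 lie left of both other libraries, and those of Pclaf, Tk1 and Tyms lie to the right.

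A gene was compared where its pooled level over both libraries was at least 10 CPM, which left 34 of 41 genes in homo against PBS. The other 7, Cdc6, Mcm10, Gins1, Dscc1, Exo1, Ccne2 and E2f8, are given by their levels. None of the 34 was at least 1.5-fold higher in homo, against 2.95% of the 7651 genes compared, and 4 were at least 1.5-fold lower (E2f1, Rpa2, Mcm2 and Mcm4), against 4.10% of all genes. In 28 of the 34 the ratio was below 0 and in 6 above 0, against 42.8% of all genes above 0. In 21 the whole interval was below 0, against 40.4% of all genes. The whole interval was above 0 in 3 (Tk1, Pclaf and Tyms), against 28.0% of all genes. With a filter of 50 CPM, 2 of 13 genes were at least 1.5-fold lower, against 4.28% of the 2830 genes compared. At the filter of 10 CPM, 0 of 34 were at least 2-fold lower, against 1.20% of all genes. The median log2 ratio was -0.20 over the 34 genes and -0.04 over all genes.

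The origin licensing and helicase genes were lower in homo than in PBS. Mcm2 to Mcm7 encode the 6 subunits of the ring that unwinds DNA, Cdt1 and Cdc6 load it. Their summed level was 373 CPM in homo, 497 CPM in mix and 494 CPM in PBS, a log2 ratio of homo over PBS of -0.41 (-0.43 to -0.38) and of homo over mix of -0.41 (-0.44 to -0.38). All 7 that were compared were below 0 in both, with every interval below 0. Of all genes compared, 40.4% had such an interval for homo over PBS and 39.3% for homo over mix. Mix over PBS was 0.01 (-0.02 to 0.04).

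Mcm2 had 29.1 CPM in homo, 48.1 CPM in mix and 46.7 CPM in PBS, a log2 ratio of homo over PBS of -0.68 (-0.78 to -0.59). Mcm4 had 51.1 CPM in homo, 81.8 CPM in mix and 78.9 CPM in PBS (-0.63, -0.70 to -0.55), and Mcm3 51.4, 71.4 and 74.6 CPM (-0.54, -0.61 to -0.46). For each of these subunits homo was the low library, and the intervals of mix over PBS held 0. The other subunits moved less. Mcm5 had 45.3 CPM in homo, 57.9 CPM in mix and 57.5 CPM in PBS (-0.34), Mcm6 111, 140 and 138 CPM (-0.31), and Mcm7 50.2, 59.1 and 57.7 CPM (-0.20). Cdt1 had 26.8 CPM in homo, 30.2 CPM in mix and 31.5 CPM in PBS (-0.23), and Cdc6, with 8.0, 7.96 and 9.33 CPM, was under the limit for comparison. The spread among subunits of 1 complex was thus larger than the counting intervals: the interval of Mcm2, homo over PBS, did not reach that of Mcm7 (-0.28 to -0.12).

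The promoters of 33 of the 41 genes were found in the RefSeq table of 250 bases before to 50 bases after the start (build GRCm38.p6). They were searched on both strands for 4 words of E2F sites, TTTGGCGC, TTTCCCGC, TTTGCCGC and TTTCGCGC, some of which overlap. At least 1 word stood in the window of 13 of the 33 genes (39.4%), against 704 of all 27025 genes of the table (2.61%), and in 6 of the 7 licensing genes found (85.7%). Of these 6, Mcm7, Cdt1 and Cdc6 are not shown. Whether a word goes with a lower level in homo was not tested. Windows of Mcm6, Mcm3 and Mcm5 are shown as examples of licensing genes that hold words and were lower in homo. That of Pclaf is shown because it holds a word and was higher. Capitals mark the E2F words in either orientation. They lie at chr1:128359656-128359955 (minus strand), chr1:20820263-20820562 (minus strand), chr8:75109259-75109558 (plus strand) and chr9:65890073-65890372 (plus strand).
Mcm6: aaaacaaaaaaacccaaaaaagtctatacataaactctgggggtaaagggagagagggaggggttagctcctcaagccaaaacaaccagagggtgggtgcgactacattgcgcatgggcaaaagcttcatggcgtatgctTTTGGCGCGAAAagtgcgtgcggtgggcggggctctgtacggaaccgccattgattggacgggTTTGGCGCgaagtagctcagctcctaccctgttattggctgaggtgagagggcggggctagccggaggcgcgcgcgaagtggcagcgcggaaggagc
Mcm3: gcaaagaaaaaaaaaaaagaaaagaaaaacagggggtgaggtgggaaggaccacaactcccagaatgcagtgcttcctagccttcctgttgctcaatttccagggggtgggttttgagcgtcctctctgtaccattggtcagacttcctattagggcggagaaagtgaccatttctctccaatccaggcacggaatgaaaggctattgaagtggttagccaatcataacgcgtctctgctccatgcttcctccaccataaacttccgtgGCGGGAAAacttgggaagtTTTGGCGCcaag
Mcm5: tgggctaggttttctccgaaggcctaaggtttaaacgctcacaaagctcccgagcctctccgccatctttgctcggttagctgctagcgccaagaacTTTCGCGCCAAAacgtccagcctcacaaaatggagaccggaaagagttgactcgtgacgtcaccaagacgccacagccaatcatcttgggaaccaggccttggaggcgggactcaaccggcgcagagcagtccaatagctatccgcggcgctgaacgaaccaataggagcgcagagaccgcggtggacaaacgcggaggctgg
Pclaf: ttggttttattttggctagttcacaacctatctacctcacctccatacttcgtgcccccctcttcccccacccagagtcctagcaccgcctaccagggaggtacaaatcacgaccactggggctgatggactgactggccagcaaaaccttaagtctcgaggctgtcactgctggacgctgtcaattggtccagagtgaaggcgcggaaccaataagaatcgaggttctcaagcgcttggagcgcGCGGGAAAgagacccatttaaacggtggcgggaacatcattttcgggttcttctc
In Mcm6 the words began 110, 106 and 47 bases before the start, and the first pair overlapped. In Mcm5 an overlapping pair began 153 and 149 bases before it, in Mcm3 words began 20 and 39 bases after it, and in Pclaf a single word began 5 bases before it. The windows of Mcm2 and Rpa2, both lower in homo, and of Tk1 and Tyms, both higher, held none of the 4 words. That of E2f1 held none either, but its bases run through E2f1 coding sequence, so it is not the stretch before the coding start. Bases outside the windows were not searched, so a gene without a word here may still have E2F sites. The word TTTGAA, the core of the CHR element of G2/M promoters, stood in 5 of the 33 windows (15.2%) and in 20.2% of all genes, and CCAAT in 21 (63.6%) and in 41.1% of all genes.

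Origin firing genes differed little. Cdc45 had 10.2 CPM in homo, 9.54 CPM in mix and 10.4 CPM in PBS, and Gins2, a GINS subunit, 17.5, 18.9 and 18.6 CPM; both intervals of homo over PBS held 0. Mcm10, which helps to start the helicase, had 4.63, 3.8 and 4.71 CPM and Gins1 4.53, 5.01 and 4.25 CPM. The summed log2 ratio of the 4 genes, homo over PBS, was -0.04 (-0.14 to 0.05).

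The polymerase genes were slightly lower in homo, with all 4 intervals of homo over PBS below 0 (40.4% of all genes). Pola1 and Prim1, of the polymerase alpha-primase that lays primers, had 22.6 CPM in homo, 26.5 CPM in mix and 24.9 CPM in PBS for Pola1, and 17.6, 21.9 and 21.0 CPM for Prim1. Pold1, the lagging strand polymerase, had 16.7, 21.4 and 20.4 CPM, and Pole, the leading strand polymerase, 11.2, 12.5 and 12.8 CPM. Their summed ratio of homo over PBS was -0.22 (-0.29 to -0.15).

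Among the clamp, loader and flap processing genes the members split. Rpa2, a subunit of the single-strand binding protein RPA, was the lowest compared gene of this role, with 71.5 CPM in homo, 104 CPM in mix and 115 CPM in PBS, a log2 ratio of homo over PBS of -0.69 (-0.75 to -0.63); it was also lower in mix than in PBS (-0.15, -0.21 to -0.09). Fen1, the flap endonuclease, had 36.0 CPM in homo, 46.4 CPM in mix and 49.8 CPM in PBS (-0.47, -0.56 to -0.37), and Rfc3, a clamp loader subunit, 17.1, 24.2 and 23.1 CPM (-0.43, -0.56 to -0.30). Pclaf, which binds Pcna, went the other way: 137 CPM in homo, 99.5 CPM in mix and 111 CPM in PBS, a log2 ratio of homo over PBS of 0.31 (0.25 to 0.36) and of homo over mix of 0.46 (0.40 to 0.52). The rest lay between. Pcna, the clamp, had 80.5 CPM in homo, 85.8 CPM in mix and 92.6 CPM in PBS (-0.20), Rfc4 25.5, 25.2 and 27.0 CPM, and Lig1, the ligase of the lagging strand, 37.4, 40.8 and 37.9 CPM. Dscc1, of the alternative clamp loader, had 4.70 CPM in homo, 7.37 CPM in mix and 8.01 CPM in PBS, and Exo1, an exonuclease, 3.16, 3.63 and 3.55 CPM.

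The nucleotide supply genes were not lower in homo as a group: their summed level was 443 CPM in homo, 405 CPM in mix and 432 CPM in PBS, a log2 ratio of homo over PBS of 0.04 (0.01 to 0.07). Tk1, thymidine kinase, had 55.0 CPM in homo, 43.0 CPM in mix and 42.8 CPM in PBS (0.36, 0.28 to 0.45), and Tyms, thymidylate synthase, 59.6, 53.2 and 53.4 CPM (0.16, 0.08 to 0.24). Rrm2, the regulated subunit of ribonucleotide reductase, had 71.4 CPM in homo, 61.1 CPM in mix and 70.8 CPM in PBS. Its partner Rrm1 had 49.7, 52.7 and 54.1 CPM (-0.12, -0.21 to -0.04), and Dut, which keeps uracil out of DNA, 208, 195 and 211 CPM. Homo was thus the high library for Tk1 and Tyms, and mix the low one for Rrm2 and Dut.

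Genes acting on chromatin behind the fork were mixed. Slbp, which binds histone mRNA, had 117 CPM in homo, 140 CPM in mix and 137 CPM in PBS (-0.23, -0.28 to -0.18), Chaf1b, a chromatin assembly factor subunit, 21.8, 27.2 and 27.3 CPM (-0.33, -0.45 to -0.21), and Uhrf1, of DNA methylation upkeep, 25.4, 26.4 and 29.5 CPM (-0.22, -0.33 to -0.10). Chaf1a, with 15.5 CPM in homo, 16.8 CPM in mix and 16.2 CPM in PBS, and so also the histone chaperone Asf1b, with 35.1, 30.9 and 32.9 CPM, and the cohesin acetyltransferase Esco2, with 12.4, 11.1 and 12.2 CPM, had intervals of homo over PBS that held 0.

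In the G1/S switch, E2f1, an activating E2F, had the lowest ratio of the 34 compared genes, with 10.9 CPM in homo, 16.5 CPM in mix and 18.2 CPM in PBS (-0.74, -0.90 to -0.58). Ccne1, cyclin E1, had 15.5 CPM in homo, 17.1 CPM in mix and 18.0 CPM in PBS (-0.21, -0.36 to -0.06), and Ccne2, cyclin E2, 5.31, 6.44 and 6.29 CPM. E2f8, a repressive E2F, had 6.90 CPM in homo, 4.78 CPM in mix and 5.71 CPM in PBS, and the checkpoint mediator Clspn 19.8, 18.2 and 20.5 CPM.

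**Figure D2:**
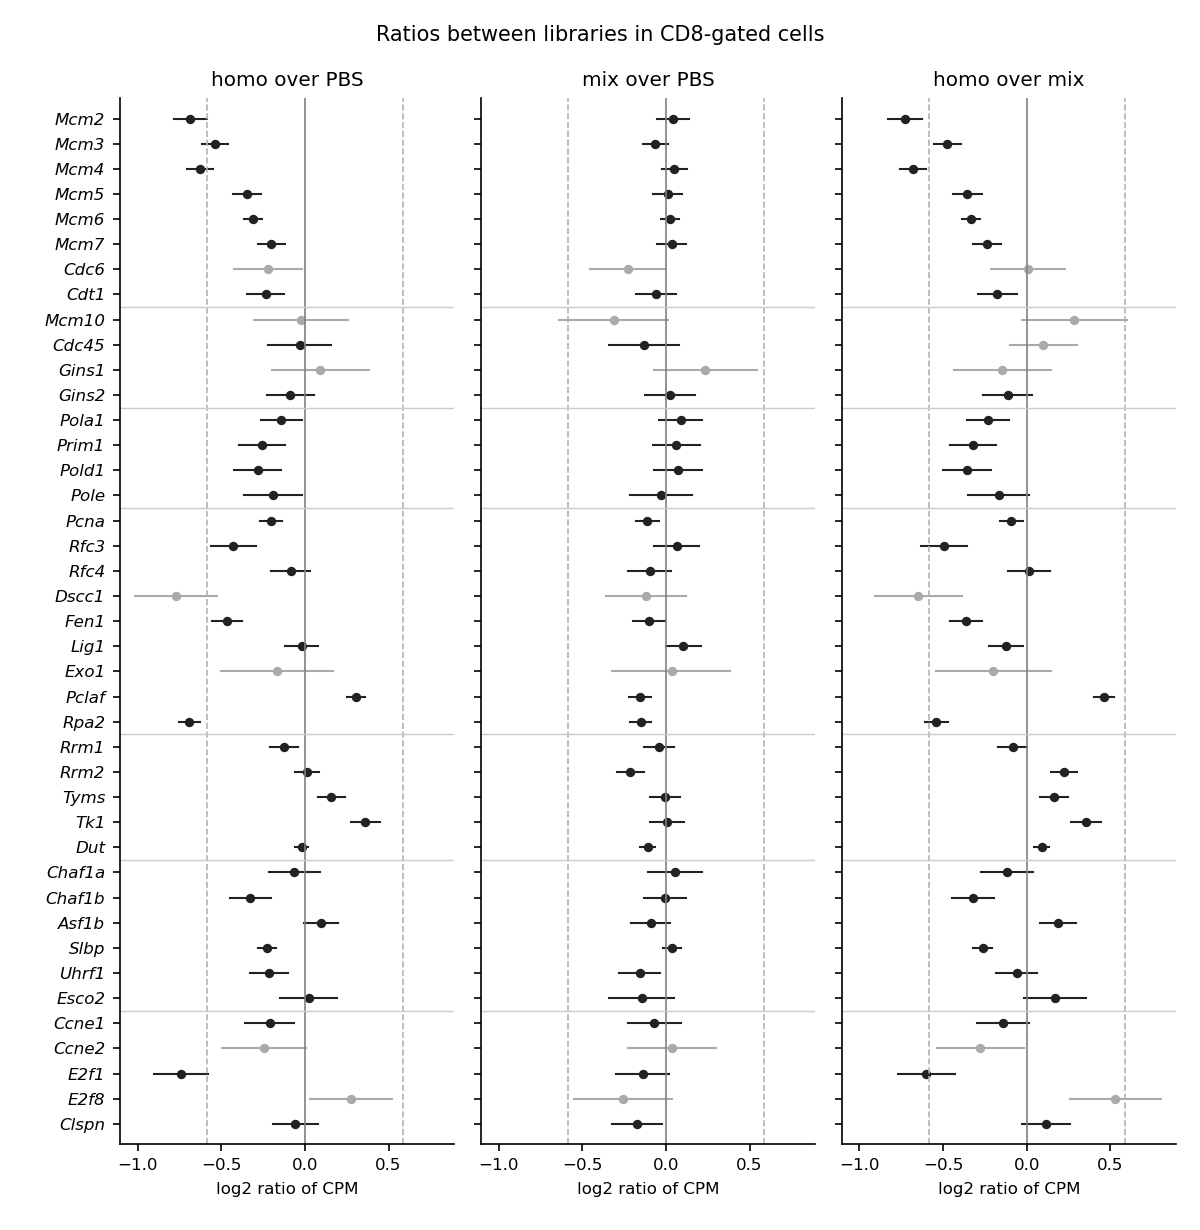
Log2 ratio of CPM in CD8-gated cells for homo over PBS, mix over PBS and homo over mix, from left to right, with 95% counting intervals; dashed lines mark 1.5-fold and grey points are genes under 10 CPM. The helicase genes lie left of 0 wherever homo is compared, and near 0 for mix over PBS.

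For mix over PBS in CD8 cells, none of 34 genes was 1.5-fold higher or lower, against 0.379% and 0.536% of all genes, and the median was -0.03 against -0.002 for all genes. Ranked by the interval end nearest 0, the lowest were Rrm2 (-0.21, -0.29 to -0.13), Pclaf (-0.16, -0.22 to -0.09) and Rpa2 (-0.15, -0.21 to -0.09). The ratio itself was lower than that of Pclaf in Clspn (-0.17, -0.32 to -0.02) and Uhrf1 (-0.157, -0.28 to -0.03), which have wider intervals. For homo over mix, none of 33 genes was 1.5-fold higher (2.87% of all genes) and 3 were lower, E2f1, Mcm2 and Mcm4 (3.78% of all genes), with a median of -0.17 against -0.05. With a filter of 50 CPM 1 of 14 was at least 1.5-fold lower (4.30% of all genes), and at 10 CPM 0 of 33 were at least 2-fold lower (1.13%). In 15 of the 41 genes, taken at any level, the order of levels was mix, PBS, homo from high to low. In 12 it was PBS, mix, homo, and homo was highest in 7. These orders were not counted over all genes. Of all genes compared, 42.8% were higher in homo than in PBS and 41.5% higher in homo than in mix. Comparisons with the same library share its counting error.

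Related lists gave a measure of what else moved. Of 40 further replication and S phase genes, 33 were compared between homo and PBS in CD8 cells. None passed 1.5-fold, against 2.95% of all genes higher and 4.10% lower. Below 0 were 30 and above 0 were 3, against 42.8% of all genes above 0. The median was -0.20, as in the 34 compared members. The lowest was Cdca7 (11.5 CPM in homo, 17.3 CPM in PBS, -0.58). Of 30 G2/M and mitosis genes, 25 were compared. In homo 11 exceeded PBS by 1.5-fold or more (2.95% of all genes) and 0 were as far below it (4.10%), and the median was 0.52. Ccnb2, cyclin B2, had 84.7 CPM in homo and 38.0 CPM in PBS (1.16, 1.07 to 1.24). In mix over PBS the median of the G2/M genes was -0.16, and 0 of 24 passed the limit (0.379% of all genes higher and 0.536% lower). Of 16 E2F and RB family genes, 12 were compared: E2f2, an activating E2F, was higher in homo, with 13.6 CPM against 9.03 CPM in PBS (0.59, 0.40 to 0.77), and Cdk6, the G1 kinase that phosphorylates RB, was lower, with 79.0 CPM against 173 CPM (-1.13, -1.19 to -1.07). So for homo over PBS the medians of the replication genes and of the G2/M genes stood on opposite sides of 0. Among the 41 genes, Tk1, Pclaf and Tyms went against their median.

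To compare single cells at equal depth, each CD8 cell was thinned at random to 2000 UMIs, which left out 403 (homo), 299 (mix) and 334 (PBS) shallower cells. Cells with at least 10 UMIs of the 41 genes made up 6.26% of cells in homo (5.67 to 6.90), 6.81% in mix (6.14 to 7.52) and 6.86% in PBS (6.27 to 7.48), and the intervals overlapped. Unthinned, the shares were 20.5%, 22.9% and 20.7%. At least 15 such UMIs were found in 3.03% of cells in homo (2.61 to 3.49), 3.12% in mix (2.67 to 3.62) and 3.91% in PBS (3.46 to 4.40), and homo and mix had nearly the same share. At the low end, 27.1% of cells in homo had none of these UMIs in 2000, against 21.0% in mix and 21.2% in PBS. The range is a cut on a continuous count, and 187 (homo), 216 (mix) and 248 (PBS) cells had 8 to 11 UMIs.

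The cells were then also split by UMIs of the 30 G2/M genes, none of which is among the 41. At least 5 of 2000 UMIs were found in 725 cells of homo (11.9%), 325 of mix (6.15%) and 427 of PBS (6.30%). Of these G2/M-high cells, 34.2% in homo (30.8 to 37.8), 52.3% in mix (46.7 to 57.8) and 59.7% in PBS (54.9 to 64.4) also had at least 10 UMIs of the 41 genes. Cells high in G2/M genes alone made up 7.80% in homo, 2.93% in mix and 2.54% in PBS. Cells high in the 41 genes alone made up 2.21% in homo (1.85 to 2.61), 3.59% in mix (3.11 to 4.13) and 3.10% in PBS (2.70 to 3.54), and those high in both 4.06%, 3.21% and 3.76%. Homo therefore held more cells with G2/M RNA and few replication UMIs, and fewer of the opposite kind.

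**Figure D3:**
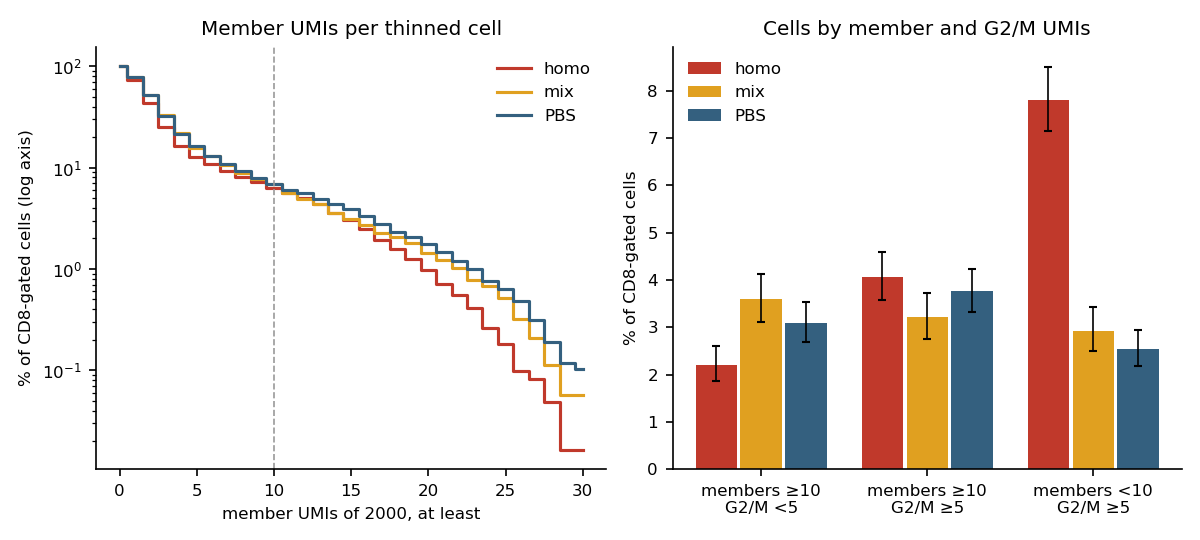
Left, share of thinned CD8-gated cells (%, log axis) with at least a given number of UMIs of the 41 genes in 2000, by library, with the limit of 10 dashed. Right, share of cells (%) in 3 ranges of these UMIs and G2/M UMIs, for homo, mix and PBS from left to right, with 95% counting intervals; the range with few replication and many G2/M UMIs holds 7.80% of homo cells, 2.93% of mix cells and 2.54% of PBS cells.

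Within G2/M-high cells the 41 genes summed to 3836 CPM in homo, 5277 CPM in mix and 6173 CPM in PBS, a log2 ratio of homo over PBS of -0.69 (-0.74 to -0.63). All 41 genes reached 10 CPM there and all 41 were below 0, with a median of -0.70 against -0.07 for all genes. The share of all genes below 0 was not counted in these cells. The intervals of Mcm5, Cdt1, Mcm10, Gins1, Pold1, Lig1, Exo1, Chaf1a, Chaf1b, Uhrf1, Ccne2 and E2f8 held 0. At least 1.5-fold lower were 25, against 12.6% of all genes, and 0 were higher, against 7.47%. For homo over mix, 40 of 41 were below 0, with a median of -0.44 against -0.08 for all genes. At least 1.5-fold lower were 15 (13.2% of all genes), and 0 were higher (8.67%). For mix over PBS, 2 were lower and 1 higher (9.63% and 8.89% of all genes), with a summed ratio of -0.23 (-0.29 to -0.16).

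Some single genes had a whole interval of homo over PBS below 0 in G2/M-high cells. Ccne1 had 26.2 CPM in homo and 79.6 CPM in PBS (-1.60, -2.22 to -1.01), E2f1 19.3 and 51.5 CPM (-1.42, -2.15 to -0.70), and Esco2 49.0 and 121 CPM (-1.30, -1.76 to -0.85). Mcm2 had 44.1 CPM in homo and 96.0 CPM in PBS (-1.12, -1.62 to -0.63) and Rrm2 288 and 544 CPM (-0.92, -1.12 to -0.73). Pclaf and Tk1, which were higher in homo over the whole gate, were lower here: Pclaf had 512 CPM in homo and 833 CPM in PBS (-0.70, -0.85 to -0.55), and Tk1 157 and 222 CPM (-0.51, -0.79 to -0.22).

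In the remaining cells, with fewer than 5 G2/M UMIs, the 41 genes summed to 870 CPM in homo, 1175 CPM in mix and 1147 CPM in PBS, a log2 ratio of homo over PBS of -0.40 (-0.44 to -0.36). Of 27 genes compared, 12 were at least 1.5-fold lower in homo (5.15% of all genes) and 1, Pclaf, higher (3.39%). Their median was -0.44, against -0.05 for all genes. Mcm2 had 16.4 CPM in homo and 35.6 CPM in PBS (-1.11, -1.37 to -0.86), Mcm3 27.0 and 52.4 CPM (-0.96, -1.16 to -0.76), and Rpa2 58.7 and 104 CPM (-0.83, -0.96 to -0.69). Pclaf had 28.8 CPM in homo and 17.5 CPM in PBS (0.72, 0.47 to 0.97) and Tk1 22.2 and 14.8 CPM (0.58, 0.30 to 0.87). For mix over PBS 0 of 30 genes passed the limit either way (0.487% higher and 0.658% lower of all genes), and for homo over mix 11 of 28 were lower (4.86%) and 0 higher (3.10%). Taking all 41 genes at any level, 34 were below 0 in homo over PBS in both kinds of cell. The other 7, Cdc6, E2f8, Exo1, Pclaf, Rrm2, Tk1 and Tyms, were above 0 in G2/M-low cells. This count was not made over all genes. Over both kinds of cell together the 41 genes had 1221 CPM in homo (1202 to 1241) and 1463 CPM in PBS (1443 to 1484). In a separate run, with cells gated after thinning, the summed ratio was -0.25 (-0.28 to -0.22), nearer 0 than in either kind. The lower level of homo than of PBS in both kinds also held at limits of 3 and 10 G2/M UMIs, chosen after seeing the data. The summed ratios were -0.72 and -0.64 in the high and -0.42 and -0.33 in the low cells.

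**Figure D4:**
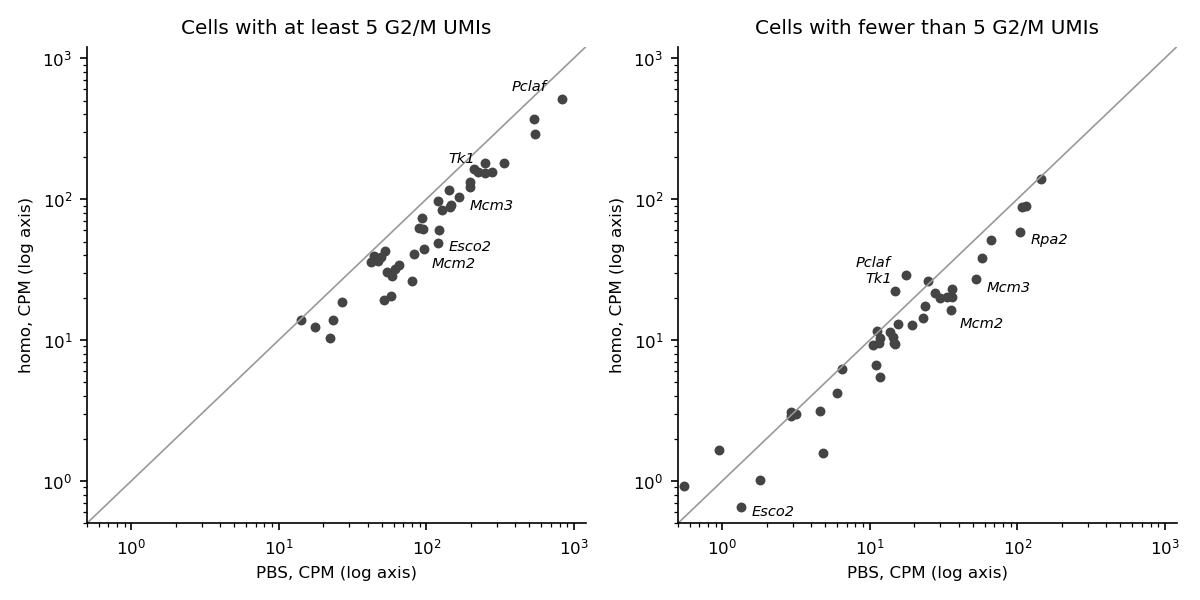
CPM of each of the 41 genes in homo (vertical) against PBS (horizontal), both on log axes, in thinned CD8-gated cells with at least 5 G2/M UMIs (left) and fewer (right); the line marks equal levels. All 41 points lie below the line on the left, and 34 on the right, where Pclaf and Tk1 lie above it.

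How closely a gene kept to G2/M-high cells also differed among the 41. In the mix library, which neither side of homo over PBS uses, the log2 ratio of CPM in G2/M-high over G2/M-low cells ran from 0.24 for Rpa2 and 0.40 for Mcm2 to 6.37 for E2f8 and 6.81 for Esco2. All 41 were above 0 in each library. The share of all genes above 0 was not counted, so this does not set the 41 apart. The 12 genes with a ratio of at least 3 had a median homo over PBS of 0.02 in the whole CD8 gate, with 7 above 0. The other 29 had a median of -0.23, with 28 below 0. Of all genes compared, 42.8% were above 0. Among the 12, Cdc6, Mcm10, Exo1, Ccne2 and E2f8 were under 10 CPM, and the intervals of Rrm2, Esco2 and Asf1b held 0. G2/M-high cells made up 11.9% in homo and 6.30% in PBS, and the part of this share in the whole-gate ratios was not tested. Across the 41 genes Spearman's rho between both ratios was 0.70 and Pearson's r 0.64, and over the 34 compared genes 0.77 and 0.67. This is a description over genes, which share cells and libraries and are not independent.

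**Figure D5:**
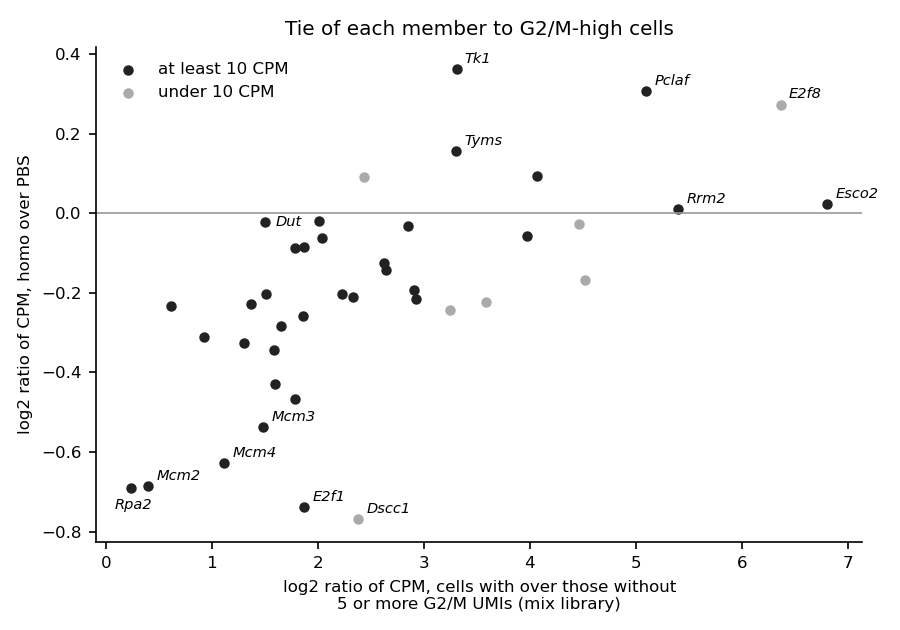
Log2 ratio of CPM between cells with at least 5 and with fewer G2/M UMIs in the mix library (horizontal) against the log2 ratio of homo over PBS in all CD8-gated cells (vertical), 1 point a gene. Rpa2 and Mcm2, with the smallest ratios in mix, lie near the bottom, and Pclaf, Rrm2 and Esco2 lie at or above 0.

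Markers of other cells also differed between libraries. In the CD8 gate the 8 macrophage genes summed to 19.95 CPM in homo, 13.4 CPM in mix and 28.2 CPM in PBS, and the 7 dendritic genes to 19.0, 51.5 and 65.7 CPM, with Clec9a at 0 in homo. Without cells with at least 3 UMIs of these lists, a choice made after seeing the data, the summed ratio of homo over PBS was -0.21. NK genes summed to between 29.5 and 31.0 CPM, and tumour epithelial genes to between 1.61 and 4.67 CPM with Krt8 and Krt19 at 0.

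In CD4 cells the 41 genes summed to 1182 CPM in homo (1057 to 1318), 936 CPM in mix (878 to 995) and 898 CPM in PBS (838 to 961). The log2 ratio was 0.40 (0.21 to 0.58) for homo over PBS, 0.34 (0.15 to 0.52) for homo over mix and 0.06 (-0.07 to 0.19) for mix over PBS. With 326 UMIs of these genes in 70 homo cells, few genes had an interval of homo over PBS off 0. The intervals treat UMIs of 1 cell as independent. At equal depth, 1 of 62 homo cells held 16.2% of the UMIs of these genes, so the intervals are too narrow for differences between cells. Of 24 compared, 10 were at least 1.5-fold higher (13.3% of all genes) and 3 lower (19.8%). The interval was above 0 for 4, Pclaf, Tyms, Dut and Pola1, against 5.37% of all genes. Pclaf had 30 UMIs in homo (109 CPM), 31 in mix (29.0 CPM) and 15 in PBS (16.1 CPM), a log2 ratio of homo over PBS of 2.76 (1.82 to 3.76). Tyms had 61.7 CPM in homo, 22.4 CPM in mix and 21.4 CPM in PBS (1.53, 0.50 to 2.53), Dut 156, 70.1 and 88.8 CPM (0.81, 0.25 to 1.36), and Pola1 36.3, 20.6 and 12.8 CPM (1.498, 0.13 to 2.83). Mcm3 had 54.4 CPM in homo, 47.7 CPM in mix and 26.8 CPM in PBS, with an interval of mix over PBS above 0 (0.83, 0.12 to 1.59). At the low end Mcm6 had 50.8 CPM in homo, 87.8 CPM in mix and 89.9 CPM in PBS (-0.82, -1.76 to 0.00). Intervals of homo over PBS also held 0 for Pold1, with 7.25 CPM in homo, 16.8 CPM in mix and 22.5 CPM in PBS, for Rfc3, with 7.25, 24.3 and 18.2 CPM, for Mcm4, with 43.5, 57.0 and 57.8 CPM, and for Slbp, with 109, 121 and 117 CPM. The same held for Mcm2 (14.5, 25.2 and 18.2 CPM), Rrm1 (58.0, 33.6 and 33.2 CPM), Lig1 (43.5, 27.1 and 33.2 CPM), Pcna (90.7, 74.8 and 66.4 CPM) and Chaf1b (18.1, 19.6 and 26.8 CPM).

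The CD4 result was fragile. Giving each cell equal weight gave 0.064 for homo over PBS and -0.040 for homo over mix, keeping all barcodes regardless of doublet score gave 0.19 for homo over PBS and -0.16 for mix over PBS, and at equal depth 1 of 62 homo cells had at least 10 of these UMIs. Dendritic genes summed to 47.1 CPM in homo, 275 CPM in mix and 1168 CPM in PBS in this gate, and macrophage genes to 10.9, 16.8 and 52.4 CPM. Dendritic genes at 0 were Flt3, Xcr1, Clec9a and Batf3 in homo, Xcr1, Itgax and Batf3 in mix, and Clec9a and Batf3 in PBS. The gate held 275746 UMIs in homo, 1070007 in mix and 934425 in PBS. The part of these markers in the result was not tested. For mix over PBS, 5 of 23 genes were higher (7.63% of all genes) and 0 lower (7.26%); for homo over mix, 6 of 24 were higher (13.0%) and 4 lower (18.8%).

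In Foxp3 cells, regulatory T cells by their marker, the sum was 1240 CPM in homo (1142 to 1344), 1248 CPM in mix (1210 to 1286) and 1531 CPM in PBS (1489 to 1574). The log2 ratio was -0.30 (-0.43 to -0.18) for homo over PBS, -0.30 (-0.35 to -0.24) for mix over PBS and -0.01 (-0.13 to 0.12) for homo over mix. Mix lay below PBS. For homo over PBS the direction did not hold in every setting. Without cells with at least 3 macrophage or dendritic UMIs the log2 ratio was 0.16 (0.02 to 0.29). In cells thinned before gating it was -0.17 (-0.41 to 0.06). Of 29 genes compared between mix and PBS, 26 were below 0 and 3 above 0, against 50.6% of all genes above 0. At least 1.5-fold lower were 2 (1.70% of all genes), and 0 were higher (1.27%). Pclaf had 89.9 CPM in homo, 61.6 CPM in mix and 105 CPM in PBS (mix over PBS -0.77, -1.02 to -0.52), and Rrm2 46.0, 43.0 and 72.7 CPM (-0.76, -1.06 to -0.45). Mcm6 had 132 CPM in homo, 115 CPM in mix and 151 CPM in PBS (-0.39, -0.58 to -0.20), Rrm1 46.0, 44.5 and 59.8 CPM (-0.43, -0.74 to -0.11) and Asf1b 35.6, 20.6 and 30.05 CPM (-0.54, -1.0 to -0.09). All 5 nucleotide supply genes had intervals of mix over PBS below 0, against 6.08% of all genes.

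For homo over PBS in Foxp3 cells, 7 of 30 genes were at least 1.5-fold lower (12.5% of all genes) and 0 higher (10.7%). Mcm5 had 13 UMIs in homo (27.2 CPM), 148 in mix (43.6 CPM) and 174 in PBS (52.3 CPM), a log2 ratio of -0.94 (-1.88 to -0.13), and Pcna 56.5 CPM in homo, 69.8 CPM in mix and 85.3 CPM in PBS (-0.60, -1.22 to -0.02). Mcm4 had 41.8 CPM in homo, 67.8 CPM in mix and 65.2 CPM in PBS, and Mcm2 12.5, 22.7 and 27.6 CPM, with intervals that held 0. For homo over mix, 2 of 29 were higher (10.0%) and 5 lower (11.8%), among them Lig1, with 27.2 CPM in homo, 50.1 CPM in mix and 46.3 CPM in PBS (homo over mix -0.88, -1.82 to -0.07). Mcm3, with 37.6 CPM in homo, 48.3 CPM in mix and 55.0 CPM in PBS, Pold1, with 29.3, 15.0 and 19.5 CPM, Dut, with 121, 101 and 120 CPM, and Slbp, with 121, 133 and 134 CPM, had intervals of homo over PBS that held 0. Dendritic genes summed to 249 CPM in homo, 710 CPM in mix and 559 CPM in PBS, and macrophage genes to 10.5, 55.7 and 66.7 CPM. Dendritic genes at 0 were Flt3, Xcr1, Clec9a, Itgax and Batf3 in homo, Flt3, Clec9a and Batf3 in PBS, and none in mix. The gate held 478164 UMIs in homo, 3393936 in mix and 3328252 in PBS, so a gene was more easily missed in homo. Without cells with at least 3 macrophage or dendritic UMIs homo over mix was 0.48 and homo over PBS 0.16. Why the sign of homo over PBS turned was not tested. With equal weight of cells homo over PBS was -0.17.

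Set against CD8 cells of the same library, the summed level in CD4 cells had a log2 ratio of -0.45 (-0.61 to -0.30) in homo, -0.92 (-1.01 to -0.83) in mix and -1.03 (-1.13 to -0.93) in PBS. For Foxp3 over CD8 cells it was -0.38 (-0.50 to -0.27) in homo, -0.51 (-0.55 to -0.46) in mix and -0.26 (-0.30 to -0.22) in PBS. CD8 cells held the highest level in every library, and the CD4 and Foxp3 gates of homo did not differ beyond counting error (0.07, -0.13 to 0.27).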

How the data were processed

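The deposited values were raw UMI counts, 1 matrix of genes by barcodes a library. Per the file headers, the authors made them with Cell Ranger 7.1.0. Another version, Cell Ranger 2.1.1, stands in the submitters' processing notes, beside Seurat 4.1.0 and mm39. The 41 members and all lists were chosen with earlier results of these data known. A barcode was kept when it had 500 or more genes, 1000 or more UMIs and a mitochondrial share under 10%. Scrublet (scanpy 1.11.5) marked 0 (homo), 1 (mix) and 3 (PBS) doublets at its own threshold, so the highest scores were removed instead, 0.8% per 1000 barcodes: 485, 527 and 803. UMIs were summed per gate and library and divided by all UMIs of the gate. Ratios carry exact conditional binomial intervals of 2 Poisson counts, levels exact Poisson intervals and shares Clopper-Pearson intervals, all 95% and all covering counting error only. The main comparison sums raw UMIs, so deep cells weigh more; per-cell results use cells thinned to 2000 UMIs (seed 1). Named genes were all members, with values in 3 libraries for the 10 highest and 10 lowest of a comparison in CD8 cells and the 5 highest and 5 lowest in the other gates, by the interval end nearest 0; from the other lists, genes at the ends. Reads of near-identical copies cannot be told apart, and the annotation used in counting is not given in the sources used here. Sequences are RefSeq's, of another build than the counts. The counting was tested on simulated data. The scripts ran in Python 3.11.15 with scipy 1.17.1, numpy 2.4.6 and, for tables, pandas 2.3.3.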

Additional observations from a re-analysis of the deposited data

Results flagged for a closer look

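The summed 41 genes had ratios of opposite sign in different gates of the same libraries. For homo over PBS the log2 ratio was -0.18 in CD8 cells, 0.40 in CD4 cells and -0.30 in Foxp3 cells. For homo over mix it was -0.13 in CD8 cells and 0.34 in CD4 cells. With 1 library a group the differences between gates were not tested, and the CD4 gate held 70 cells in homo.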

How the results depend on the processing

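No paired analysis was possible because each group has 1 library. In CD8 cells the sign of the sum stayed in every alternative run. For homo over PBS it was -0.26 with equal weight of cells, -0.25 thinned, -0.13 scaled without ribosomal, mitochondrial and receptor genes and -0.21 without cells with myeloid UMIs; for homo over mix it was -0.23, -0.21, -0.077 and -0.17, and for mix over PBS -0.028 with equal weight. Genes at least 1.5-fold lower numbered 2 of 13 (homo over PBS) and 1 of 14 (homo over mix) with a filter of 50 CPM; past 2-fold there were 0 of 34 and 0 of 33. Cells with at least 5 member UMIs made up 12.6% in homo, 15.7% in mix and 16.2% in PBS, and with at least 15, 3.03%, 3.12% and 3.91%.
In CD4 cells homo over PBS was 0.19 without doublet removal, 0.064 with equal weight and 0.70 thinned. Gated on raw UMIs and then thinned, CD4 cells had 847 CPM in homo (693 to 1025) and 782 CPM in PBS (705 to 864), with intervals that overlapped. Mix over PBS was -0.16 without doublet removal, -0.37 with at least 2 lineage UMIs and 0.22 thinned. Homo over mix was 0.90 with at least 2 lineage UMIs and -0.040 with equal weight.
In Foxp3 cells homo over PBS was -0.17 with equal weight, -0.17 thinned and 0.16 without myeloid UMIs; mix over PBS was -0.40 with at least 2 lineage UMIs and -0.21 with equal weight; homo over mix was 0.15 thinned and 0.48 without myeloid UMIs. The cause of these shifts was not tested.
Genes with a counted difference whose sign turned lay in these small gates; in CD8 cells up to 10 of 93 single ratios (thinned) changed sign, among them Asf1b (homo over PBS and homo over mix) and Rrm2 (homo over PBS). In CD4 cells Mcm6 was 0.74 (homo over PBS) and 0.60 (homo over mix) thinned, Pola1 -0.34 (homo over mix) thinned, Rfc4 -0.74 and Pclaf -0.64 (mix over PBS) with at least 2 lineage UMIs, and Rrm2 -0.27 (mix over PBS) without doublet removal. In Foxp3 cells Mcm5 was 0.029 (homo over PBS) and 0.19 (homo over mix) with equal weight and 0.12 (homo over mix) without myeloid UMIs, Rrm2 0.27 (homo over PBS) thinned and Mcm2 0.057 (homo over mix) without myeloid UMIs. The myeloid, 5% mitochondrial and other G2/M limits were chosen after seeing the data.
Depth limits the homo CD4 and Foxp3 gates most: 1 UMI there was worth several CPM, so a limit of 3 counts for 0 UMIs stands at 10.9 CPM in CD4 cells and 6.27 CPM in Foxp3 cells, and the upper end of the exact Poisson interval at 13.4 and 7.71 CPM.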

Other observations

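Thinned CD8 cells were also split by single state markers, which none of the comparisons above used. Cells with Tcf7, a factor of memory-like T cells, and no Havcr2 had 708 CPM of the 41 genes in homo (654 to 765), 1017 CPM in mix (947 to 1091) and 1103 CPM in PBS (1034 to 1176). Cells with Havcr2, an inhibitory receptor of exhausted T cells, and no Tcf7 had 1311 CPM in homo (1269 to 1355), 1214 CPM in mix (1172 to 1257) and 1317 CPM in PBS (1278 to 1356), so in these cells homo and PBS did not differ beyond counting error. Cells with neither had 1245 CPM in homo, 1545 CPM in mix and 1549 CPM in PBS.

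Cells with a UMI of Gzmb, a cytotoxic granule protease, had 1347 CPM in homo, 1435 CPM in mix and 1478 CPM in PBS. Cells without one had 1011 CPM in homo, 1399 CPM in mix and 1405 CPM in PBS. With Il2ra, the inducible chain of the IL-2 receptor, the values were 1405 CPM in homo (1337 to 1475), 1315 CPM in mix (1251 to 1382) and 1395 CPM in PBS (1337 to 1455); without it they were 1202, 1442 and 1472 CPM in the same order of libraries. With Lag3, an inhibitory receptor, the level was 1132 CPM in homo, 1358 CPM in mix and 1369 CPM in PBS, and without it 1339, 1527 and 1586 CPM. Homo was thus below PBS, with intervals that did not overlap, in cells with and without Gzmb, with and without Lag3, without Il2ra, with neither Tcf7 nor Havcr2, and with Tcf7 and no Havcr2. The intervals of homo and PBS overlapped in cells with Il2ra, in cells with Havcr2 and no Tcf7, and in the few cells with both Tcf7 and Havcr2. Whether these gaps differ between states was not tested. Median depth of the cells moved with the state, from 5535 UMIs in homo cells with Tcf7 and no Havcr2 to 7971 UMIs in those with Havcr2 and no Tcf7, before thinning.

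The CD8-gated barcodes removed by doublet score held 1896 CPM of the 41 genes in homo, 2391 CPM in mix and 2082 CPM in PBS, against 1619, 1774 and 1834 CPM in those kept.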
